A study of Mus musculus with 6 samples.

Results

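The 10 cytosolic and mitochondrial heat shock genes described here are Hspa1a, Hspa1b, Hspa8, Hsph1, Dnajb1, Hsp90aa1, Hsp90ab1, Hspb1, Hspd1 and Hspe1. They were chosen by symbol and matched through Ensembl gene identifiers to the deposited read counts, in which they are 10 of 56923 genes. All 10 passed the filter on low counts, which left 18273 genes for testing.

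RNA was sequenced from whole snap-frozen kidneys of male mice aged 10 weeks, with 3 control and 3 Pkd1 KO libraries. The controls were Pkd1flox/flox.Tet-O-Cre and the Pkd1 KO animals Pkd1flox/flox.Pax8rtTA.Tet-O-Cre, so that both groups carried floxed Pkd1 and a Cre transgene under a tetracycline-controlled promoter and differed in the Pax8rtTA transgene. Pkd1 encodes polycystin-1, the protein most often affected in autosomal dominant polycystic kidney disease, and the Pax8 promoter drives the doxycycline-dependent activator in tubule epithelium, so cells outside the tubule are not targeted. Per the labels' protocols, animals drank doxycycline at 2 mg/ml with 5% sucrose for 14 days, from postnatal day 28 to 42, and the series' design describes the controls as non-cystic. The labels number the samples without stating that each came from a separate mouse, and p-values measure the spread between these libraries.

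Heat shock proteins are chaperones that bind unfolded or partly folded proteins. In the cytosol, J-domain proteins such as Dnajb1 pass clients to Hsp70 proteins, Hsp110 proteins such as Hsph1 exchange the nucleotide on Hsp70, and Hsp90 acts later on kinases and steroid receptors. In mitochondria, Hspd1 (Hsp60) forms a folding chamber that Hspe1 (Hsp10) closes as a lid. Heat shock factor 1 drives the inducible genes of the set by binding heat shock elements, which are repeats of the unit nGAAn in alternating orientation, while Hspa8 and Hsp90ab1 are also abundant in unstressed cells.

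Gene counts summed to between 45020173 and 62983791 per library. Pkd1 itself stood at 30.01, 46.4 and 23.6 CPM (gene counts scaled to the library size, with edgeR's TMM normalization) in controls 1 to 3 and at 8.77, 9.003 and 10.01 CPM in Pkd1 KO 1 to 3, with no overlap between the groups. Its log2 fold change was -1.85 ± 0.24 (edgeR adjusted p = 0.002344) and -0.49 ± 0.12 (edgeR adjusted p = 0.01351) when each library was corrected for GC content and length. The names of the deposited tables place all 3 controls in 1 sequencing project and all 3 Pkd1 KO libraries in another, and an effect of the project cannot be told apart from one of the genotype. Reads that mapped to several places made up 8.996% to 10.65% of control reads and 12.23% to 13.36% of Pkd1 KO reads. Summed levels of 10 proximal tubule markers were 31220 to 37510 CPM in the controls and 46580 to 54990 CPM in the Pkd1 KO kidneys, those of 6 thick ascending limb markers 4155 to 5671 and 2008 to 2396 CPM, and those of 7 macrophage markers 110.5 to 147.3 and 198.6 to 322 CPM. Single markers did not all follow these sums. Of the proximal tubule markers 2 were called higher and 6 lower, of the thick ascending limb markers 3 were called lower, and of the macrophage markers 4 were called higher and 1 lower. The part of these markers in the results below was not tested, and in whole kidney RNA fewer cells of a type and less RNA per cell cannot be told apart.

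Of the 10 heat shock genes, 6 were lower and 1 was higher in the Pkd1 KO kidneys by edgeR's quasi-likelihood test with Benjamini-Hochberg adjustment over all tested genes at 0.05. Hspa1a, Hspa1b, Hsph1, Hsp90aa1, Hsp90ab1 and Hspd1 were lower, Hspe1 was higher, and Hspa8, Dnajb1 and Hspb1 did not pass. The same test called 46.9% of all tested genes, 22.7% higher and 24.2% lower, so a call in either direction was common in these libraries. The median log2 fold change (Pkd1 KO minus control) was -0.79 over the 10 genes and 0.03 over all tested genes. The groups did not overlap for 7 of the 10 genes, against 61.2% of all tested genes. A second fit corrected each library for its trend of counts with GC content and transcript length (offsets). It called 34.8% of all genes, and of the 10 it called 6 lower and none higher, with a median of -0.88. In that fit Hspb1 entered the calls, while Hspa1a and Hspe1 left them. The count of 7 fell to 4 without control 1, without Pkd1 KO 2 or without Pkd1 KO 3. Calls over all genes fell too, from 8579 of 18273 tested to 6097 of 18920, 5071 of 18685 and 5871 of 18630 in these fits.

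**Figure D1:**
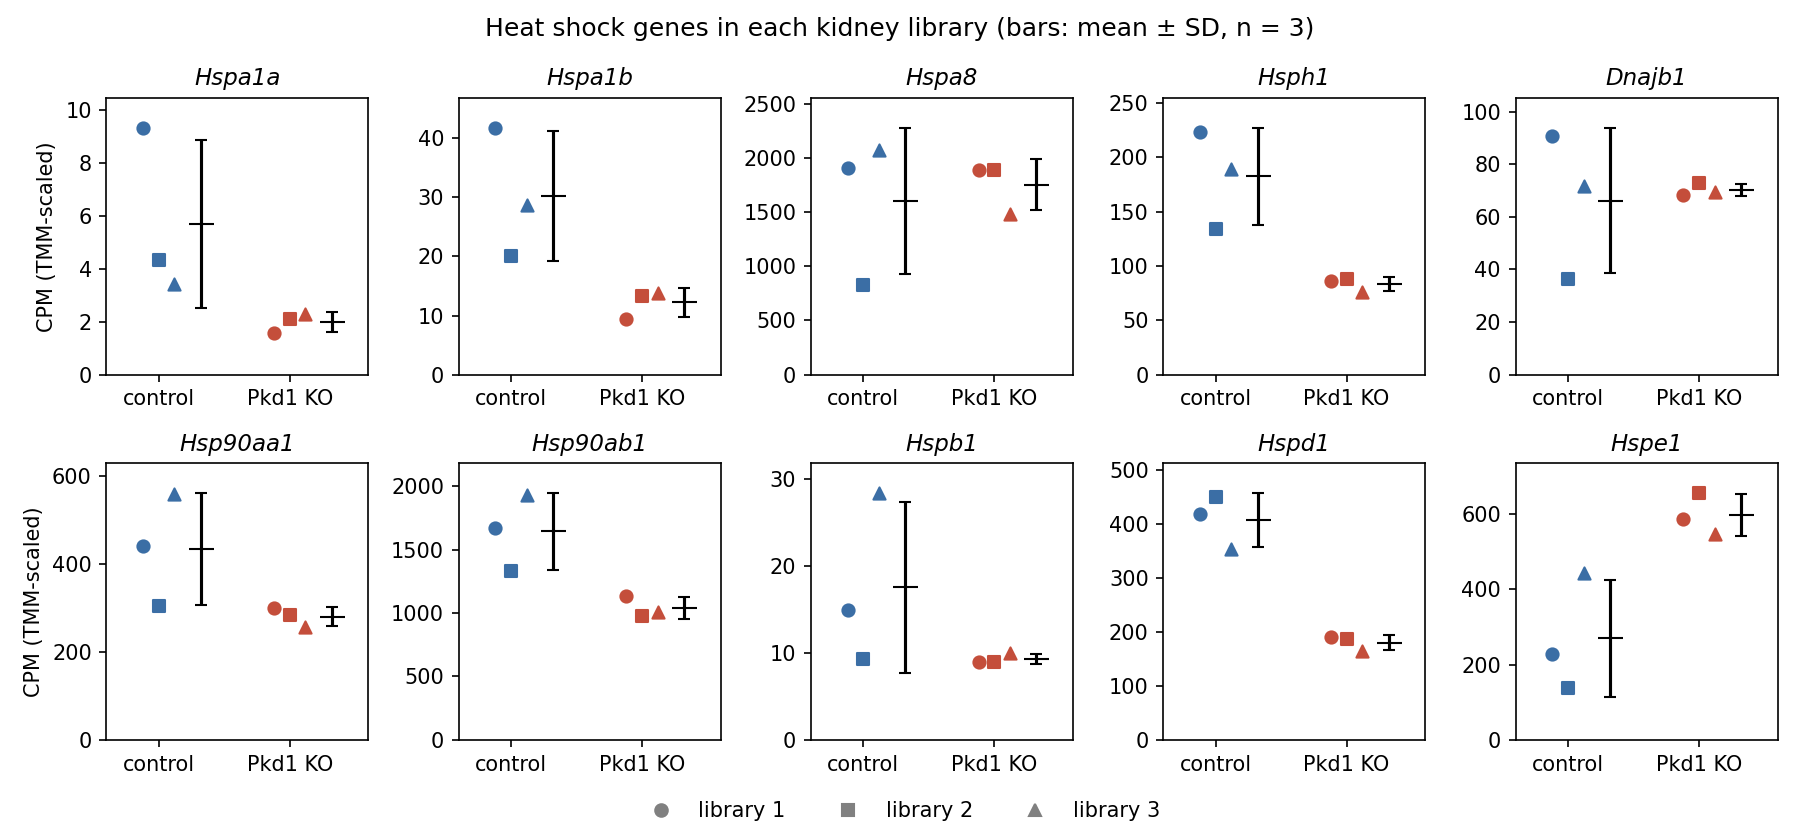
CPM of each of the 10 heat shock genes (vertical axis, from 0) in the 3 control and 3 Pkd1 KO libraries (horizontal axis), with points for libraries and bars for the mean ± SD (n = 3). Control 2 is the lowest control for 8 of the 10 genes, and the Pkd1 KO libraries lie closer together than the controls for all 10.

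Hspa1a (ENSMUSG00000091971) and Hspa1b (ENSMUSG00000090877) encode the stress-inducible Hsp70 and lie near each other on chromosome 17. Hspa1b stood at 41.8, 19.99 and 28.7 CPM in controls 1 to 3 and at 9.40, 13.4 and 13.9 CPM in Pkd1 KO 1 to 3. All Pkd1 KO libraries were below all controls, and control 1 was the highest. Its log2 fold change was -1.30 ± 0.27 (SE, n = 3 per group, edgeR adjusted p = 0.005747), or 2.47-fold lower. Hspa1a was the scarcest of the set, at 9.32, 4.32 and 3.41 CPM in the controls, from 480, 250 and 152 counts, and at 1.56, 2.10 and 2.27 CPM in the Pkd1 KO kidneys, from 77, 128 and 144 counts. The groups again did not overlap, with control 1 far above the other controls. Hspa1a fell by 1.52 ± 0.37 on the log2 scale (edgeR adjusted p = 0.01055), and the change was -0.998 without control 1. With the offsets the change was -0.97 for Hspa1a (edgeR adjusted p = 0.05189) and -0.87 for Hspa1b (edgeR adjusted p = 0.02862). Without control 1 as well, these were -0.45 and -0.60, and Hspa1b then missed the threshold (edgeR adjusted p = 0.1132). With the offsets Hspa1b also missed it without Pkd1 KO 1 (0.1085), Pkd1 KO 2 (0.06181) or Pkd1 KO 3 (0.06065), and Hspa1a passed only without control 2 (0.01826) or control 3 (0.01627).

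The pair shares most of its sequence, and 66.3% of 50-base windows of the longest Hspa1a transcript in GENCODE M21 also occur in another gene's transcript, against 62.3% for Hspa1b. Since only uniquely mapped reads were counted, the split of reads between the pair is uncertain. Their sum was 51.1, 24.31 and 32.15 CPM in the controls and 10.96, 15.48 and 16.15 CPM in the Pkd1 KO kidneys. Each gene alone was lower in every Pkd1 KO library, so the sum had to separate the groups too. The sum does not recover reads that map to both genes, since these were not counted. The ratio of Hspa1a to Hspa1b on the log2 scale differed by -0.14 between the groups, which overlapped (exact two-sided permutation test, p = 0.8).

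The 250 bases before the annotated starts of the pair are shown because they carry the only 8-base heat shock motif found there and show how alike the pair is. They come from the RefSeq promoter table of GRCm38.p6, are given 5′ to 3′ on the minus strand, and have the motif GAANNTTC in capitals. Hspa1a lies at chr17:34972157-34972406 and Hspa1b at chr17:34959239-34959488.
Hspa1a: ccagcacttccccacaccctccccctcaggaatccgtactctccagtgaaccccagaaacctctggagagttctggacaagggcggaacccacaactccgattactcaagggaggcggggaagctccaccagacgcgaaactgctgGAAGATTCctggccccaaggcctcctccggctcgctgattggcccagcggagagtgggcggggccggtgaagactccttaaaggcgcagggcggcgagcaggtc
Hspa1b: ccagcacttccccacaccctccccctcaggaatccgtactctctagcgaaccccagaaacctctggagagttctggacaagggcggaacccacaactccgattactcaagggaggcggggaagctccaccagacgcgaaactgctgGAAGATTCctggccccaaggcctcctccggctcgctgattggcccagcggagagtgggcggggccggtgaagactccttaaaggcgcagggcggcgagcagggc
The stretches were identical at 247 of 250 positions (98.8%), and the differences, with the Hspa1a base first and positions counted from the 5′ end of the stretch, were C44T, T47C and T249G. The motif lay 97 to 104 bases before either start.

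Motifs were searched on both strands in the 250 bases before each start, for the 7 of 10 genes with an entry in that table (Hspa8, Hsp90aa1 and Hsp90ab1 had none). The pair of units GAANNTTC or TTCNNGAA was present in 6 of the 7, all but Dnajb1. Hspd1, Hsph1 and Dnajb1 have 2 windows each, and counted by window the pair of units was in 7 of 10, against 12.8% of all 32851 windows of that length. These windows are not independent. Both Hsph1 windows hold the same match, Hspd1 and Hspe1 share an element, and the Hspa1 pair is nearly identical. The genes were also chosen as heat shock genes. The longer run GAANNTTCNNGAA or TTCNNGAANNTTC, which contains both shorter motifs, was present in 0.466% of all windows and, among the 7, in Hspd1 and Hspe1. A match in these letters is a description of the sequence and was not measured as binding. Stretches of 30 bases around the matches outside the Hspa1 pair are shown 5′ to 3′ on the gene's strand with matched letters in capitals.
Hspd1, chr1:55088053-55088082, minus strand: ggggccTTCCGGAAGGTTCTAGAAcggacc
Hspe1, chr1:55088053-55088082, plus strand: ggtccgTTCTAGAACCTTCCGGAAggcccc
Hspb1, chr5:135887801-135887830, plus strand: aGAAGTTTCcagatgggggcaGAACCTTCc
Hsph1, chr5:149636351-149636380, minus strand: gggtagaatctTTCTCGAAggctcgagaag
Hspd1 and Hspe1 lie on opposite strands, and the 18 bases in capitals are the same element read on either strand. Of 2 annotated Hspd1 starts, the one at 55087932 points away from the Hspe1 start, 215 bases off, and the element between them lies 127 to 144 bases before it and 72 to 89 bases before the Hspe1 start. The other Hspd1 start, at 55088243, lies beyond the Hspe1 start, so the element is downstream of it and absent from its window.

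Hspd1 (ENSMUSG00000025980), the mitochondrial chaperonin, stood at 419, 450.2 and 353 CPM in the controls and at 190.02, 186 and 164 CPM in the Pkd1 KO kidneys. The groups were far apart and each was tight. Hspd1 had a log2 fold change of -1.18 ± 0.16 (edgeR adjusted p = 0.002344), a 2.26-fold lower level, and -1.59 with the offsets. Hspd1 passed the test without each library in turn, with and without the offsets. Of its 50-base windows, 44.8% also occur in another gene's transcript, mostly that of the processed pseudogene Hspd1-ps3.

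Hspe1 (ENSMUSG00000073676), whose protein works as the lid of the Hspd1 chamber, moved the other way. It stood at 228, 138 and 442 CPM in the controls and at 588, 656 and 548 CPM in the Pkd1 KO kidneys. The Pkd1 KO libraries were all higher than the controls, which themselves spread widely, with control 3 nearest to the Pkd1 KO kidneys. The log2 fold change was 1.15 ± 0.36 (edgeR adjusted p = 0.02756), a 2.22-fold higher level. The call depended on the fit and on single libraries, since the change was 0.50 with the offsets (edgeR adjusted p = 0.1483), and the adjusted p was 0.1033 without control 1, 0.07169 without Pkd1 KO 1, 0.08985 without Pkd1 KO 2 and 0.05469 without Pkd1 KO 3. When control 3, the highest control, was removed, Hspe1 passed in both fits, with changes of 1.65 and 0.86.

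The balance of the mitochondrial pair was then compared within each library. Hspe1 counts per Hspd1 count were 0.545, 0.308 and 1.255 in controls 1 to 3, against 3.09, 3.52 and 3.35 in Pkd1 KO 1 to 3. The groups did not overlap, and on the log2 scale the ratio differed by 2.48 (exact two-sided permutation test, p = 0.1, the smallest that 3 against 3 allows; 0.2 after Benjamini-Hochberg adjustment over 6 ratios, which were chosen after the values were seen). Every Pkd1 KO library was already above every control for Hspe1 and below every control for Hspd1. The ratio therefore could not overlap between the groups, and its p adds nothing to the results of the single genes. In GENCODE M21 the annotated spans of the pair overlap by 112 bases on opposite strands. Where exons of both genes overlap, counts that ignore strand do not assign the reads, and the overlap of exons alone was not measured. Transcript length differs between the pair, with 2642 bases of exon for Hspd1 and 1474 for Hspe1.

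**Figure D2:**
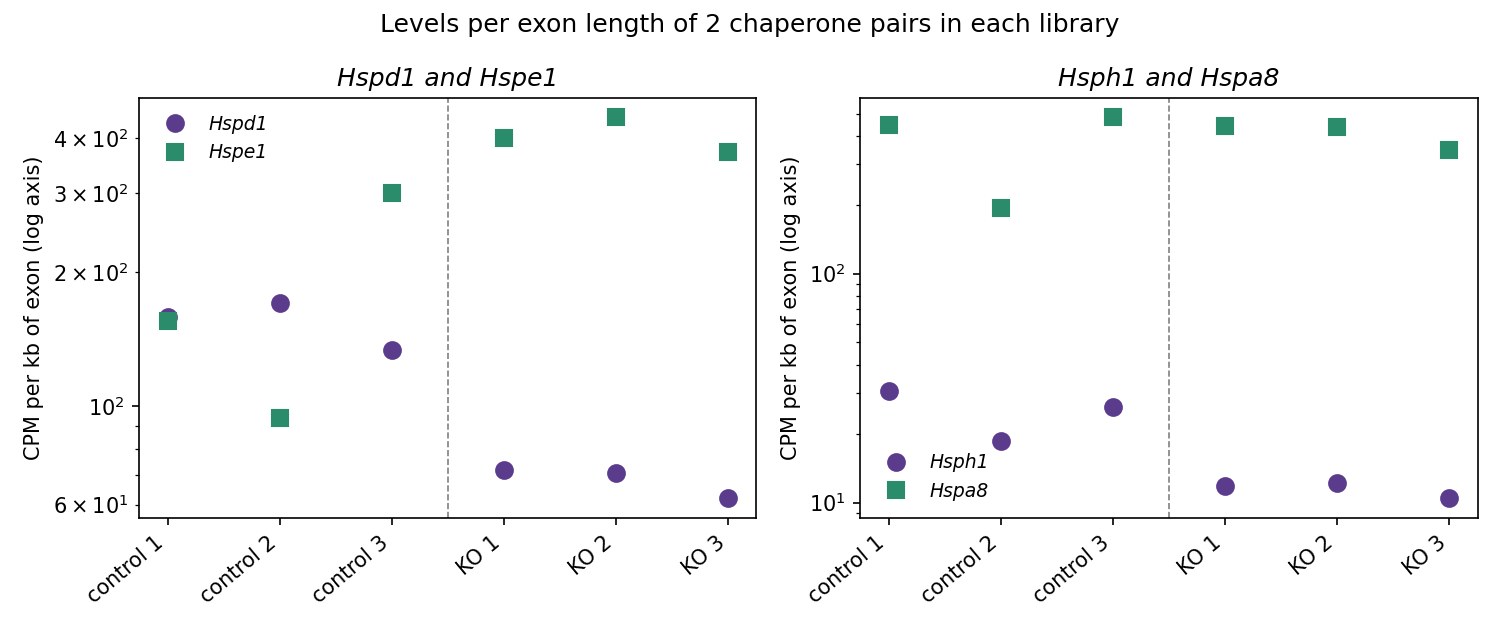
CPM per kilobase of exon (vertical log axis) in each library (horizontal axis) for Hspd1 and Hspe1 on the left and for Hsph1 and Hspa8 on the right. Hspe1 lies above Hspd1 in all 3 Pkd1 KO libraries and Hspd1 is the higher of the pair in controls 1 and 2, while the gap between Hspa8 and Hsph1 is wider in the Pkd1 KO libraries.

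Hsph1 (ENSMUSG00000029657), the Hsp110 nucleotide exchange factor, stood at 224, 134 and 189 CPM in the controls and at 85.9, 88.3 and 75.7 CPM in the Pkd1 KO kidneys. No Pkd1 KO library reached the lowest control. For Hsph1 the log2 fold change was -1.13 ± 0.20 (edgeR adjusted p = 0.003298), or 2.19-fold lower, and -0.90 with the offsets. Like Hspd1, Hsph1 passed without each library in turn, with and without the offsets. The largest edgeR adjusted p was 0.04794, with the offsets and without control 1. Hsph1 shared no 50-base window with another gene's transcript.

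Hspa8 (ENSMUSG00000015656), the constitutive Hsp70, stood at 1907, 829 and 2075 CPM in the controls and at 1893, 1886 and 1486 CPM in the Pkd1 KO kidneys. Control 2 was low and the other 5 libraries overlapped. The log2 fold change was 0.13 ± 0.31 (edgeR adjusted p = 0.751), and it was -0.21 without control 2 and -0.06 with the offsets, so its sign depended on the fit. Dnajb1 (ENSMUSG00000005483), a J-domain partner of Hsp70, stood at 90.9, 36.2 and 71.6 CPM in the controls and at 68.4, 72.7 and 69.4 CPM in the Pkd1 KO kidneys. Here too the Pkd1 KO libraries lay within the range of the controls and control 2 was the lowest. Its log2 fold change was 0.08 ± 0.28 (edgeR adjusted p = 0.821) and -0.25 without control 2.

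Hsph1, Hspa1b and Dnajb1 were also set against Hspa8 in the same library. The log2 ratio to Hspa8 differed by -1.33 for Hsph1 and by -1.49 for Hspa1b, with no overlap of the groups in either (exact two-sided permutation test, p = 0.1 for each). For Dnajb1 it differed by -0.05, and the groups overlapped (exact two-sided permutation test, p = 0.9). Hspa8 also shares sequence with processed pseudogenes, with 52.7% of its 50-base windows found in other transcripts, and levels and ratios that use it rest on reads that mapped uniquely. The same holds for Hspd1 above and for Hsp90aa1 and Hspb1, with shares of 58.5% and 51.6%.

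Hsp90ab1 (ENSMUSG00000023944), the constitutive cytosolic Hsp90, stood at 1673, 1329 and 1931 CPM in the controls and at 1134, 977 and 1007 CPM in the Pkd1 KO kidneys. The groups did not overlap. The log2 fold change was -0.66 ± 0.18 (edgeR adjusted p = 0.01739) and it was -0.72 in the offset fit. Without the offsets Hsp90ab1 missed the threshold when control 1 (edgeR adjusted p = 0.05265), Pkd1 KO 2 (0.08133) or Pkd1 KO 3 (0.06523) was removed, and with upper-quartile scaling (0.06371). With the offsets Hsp90ab1 passed whichever library was removed, with the largest edgeR adjusted p (0.04826) without Pkd1 KO 2. Hsp90aa1 (ENSMUSG00000021270), the inducible form, stood at 441, 304 and 559 CPM in the controls and at 299.8, 284 and 257 CPM in the Pkd1 KO kidneys. Control 2 was only just above the highest Pkd1 KO library. The log2 fold change was -0.63 ± 0.22 (edgeR adjusted p = 0.0399). In the offset fit the change was -1.03 (edgeR adjusted p = 0.003221), and Hsp90aa1 passed there whichever library was removed. In the fit that omits the offsets it passed only when control 2 was the library removed, with an adjusted p of 0.05213 without control 3, 0.08366 without Pkd1 KO 1, 0.09054 without control 1, 0.1129 without Pkd1 KO 2 and 0.1301 without Pkd1 KO 3. With upper-quartile scaling its adjusted p was 0.12.

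Hsp90aa1 counts per Hsp90ab1 count were 0.264, 0.229 and 0.289 in controls 1 to 3, against 0.264, 0.291 and 0.255 in Pkd1 KO 1 to 3. On the log2 scale this ratio differed by 0.06, with overlapping groups (exact two-sided permutation test, p = 0.6).

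Hspb1 (ENSMUSG00000004951), a small heat shock protein that holds unfolded clients without using ATP, stood at 14.9, 9.29 and 28.4 CPM in the controls and at 8.96, 8.94 and 9.96 CPM in the Pkd1 KO kidneys. The Pkd1 KO libraries were nearly level, and control 2 lay within the range they span. For Hspb1 the log2 fold change was -0.91 ± 0.34 (edgeR adjusted p = 0.05526). It was -1.24 without control 2 (edgeR adjusted p = 0.001227), -0.43 without control 3, and -0.93 with the offsets (edgeR adjusted p = 0.02882). The call with the offsets was kept without control 2 and lost without control 1 (0.06197), control 3 (-0.49, 0.05081), Pkd1 KO 1 (0.1057), Pkd1 KO 2 (0.1024) or Pkd1 KO 3 (0.07246).

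**Figure D3:**
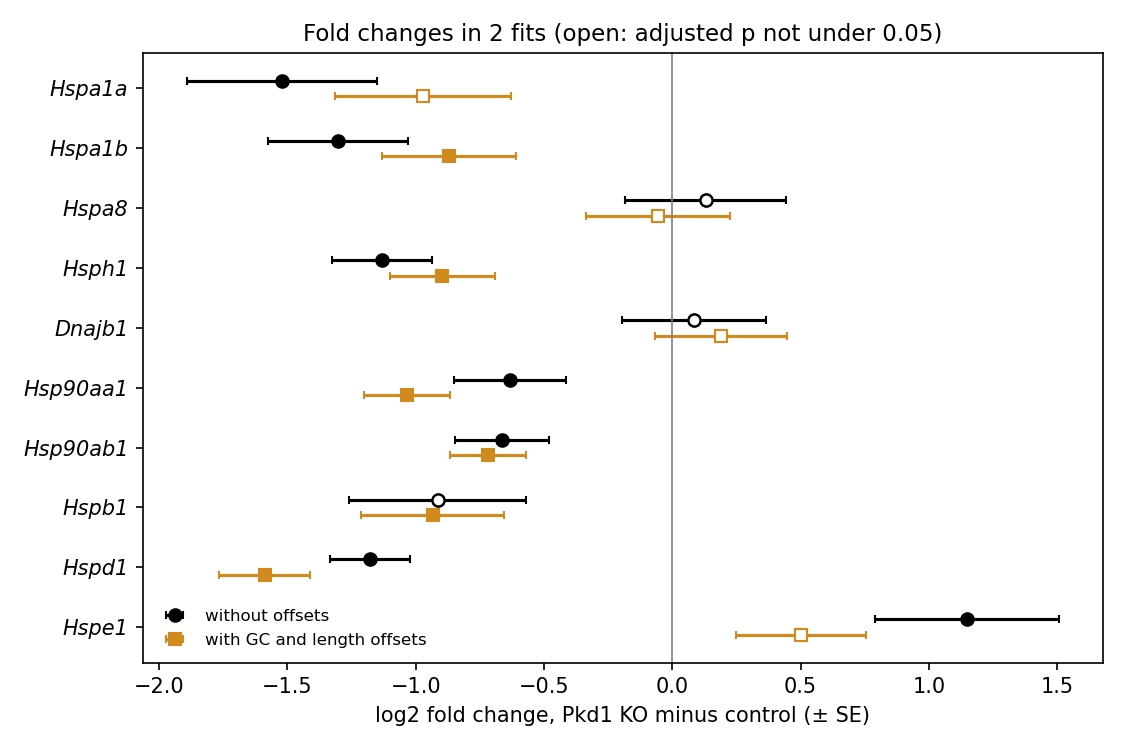
Log2 fold change (horizontal axis, Pkd1 KO minus control, ± SE) of each heat shock gene (vertical axis) in the fit without offsets (circles) and with GC and length offsets (squares), with filled symbols for an adjusted p under 0.05. Hspe1 is right of 0 and filled only without the offsets, and Hspd1 and Hsph1 are left of 0 and filled in both.

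Levels of different genes were compared as mean CPM per kilobase of exon (± SD, n = 3). In the controls the order was Hsp90ab1 (548 ± 101), Hspa8 (373 ± 157), Hspe1 (183 ± 106), Hspd1 (154 ± 18.9), Hsp90aa1 (111 ± 32.4), Hsph1 (25.1 ± 6.19), Dnajb1 (20.7 ± 8.65), Hspb1 (16.99 ± 9.52), Hspa1b (10.8 ± 3.91) and Hspa1a (1.92 ± 1.07). Most neighbours in that order lay within their spread, and the clear steps were from Hsp90aa1 down to Hsph1 and from Hspa1b down to Hspa1a. In the Pkd1 KO kidneys Hspa8 (408 ± 54.1) and Hspe1 (405 ± 37.1) had the highest means, followed by Hsp90ab1 (347 ± 27.8), and none of these neighbours differed beyond their spread. Hsp90aa1 (71.3 ± 5.54) and Hspd1 (68.1 ± 5.41) followed at a distance and did not differ beyond their spread. Dnajb1 (21.9 ± 0.698), Hsph1 (11.5 ± 0.918), Hspb1 (9.005 ± 0.568), Hspa1b (4.36 ± 0.875) and Hspa1a (0.666 ± 0.126) made up the rest.

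The controls varied more than the Pkd1 KO kidneys in these genes. The coefficient of variation was higher in the controls for 10 of the 10 genes, against 76.5% of all tested genes. Its median over the 10 was 39.1% in the controls and 8.01% in the Pkd1 KO kidneys, against 22.1% and 10.5% over all tested genes. Control 2 was the lowest control for 8 of the 10 (40.1% of all tested genes), and the exceptions, Hspa1a and Hspd1, were lowest in control 3. This was not particular to the 10. Some lists described below share genes, so their counts are not independent. In them, control 2 was lowest for 14 of 14 TRiC and prefoldin genes, 17 of 20 other heat shock factor 1 targets and 15 of 20 Hsp90 co-chaperones. It was lowest for 4 of 12 heat shock factors and regulators, 4 of 9 other Hsp70 and Hsp110 genes and 2 of 8 other small heat shock genes. Summed over the 10 genes, the level was 5049, 3256 and 5681 CPM in the controls and 4279, 4175 and 3633 CPM in the Pkd1 KO kidneys, which overlapped.

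The genes outside the set whose log2 CPM followed the mean of the 10 standardised members most closely over the 6 libraries were Crispld2, Alas1, Mylip, Serpina1d and Hcfc1r1, with Pearson's r of 0.9977 to 0.9744 among 7853 genes ranked. Alas1, the first enzyme of heme synthesis, stood at 379, 148 and 390.1 CPM in the controls and at 154, 160.0 and 130.2 CPM in the Pkd1 KO kidneys. Controls 1 and 3 were high and control 2 lay within the range of the Pkd1 KO libraries. All libraries share their depth and project with the genes compared, and these values are a description of 6 libraries.

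By edgeR's quasi-likelihood test 22.7% of all tested genes were called higher and 24.2% lower, and 16.7% and 18.1% with the offsets. The calls in every list below stand beside these shares. Some genes are in several lists and are counted in each. Among 12 heat shock factors and their regulators, 4 were higher and 2 lower by the same test, with a median log2 fold change of 0.43. With the offsets 1 was higher and 1 lower, with a median of 0.009. Hsf1, the main factor of the heat shock response, stood at 35.2, 28.5 and 27.2 CPM in the controls and at 17.4, 15.9 and 16.2 CPM in the Pkd1 KO kidneys, and the groups were well apart. Its change of -0.87 (edgeR adjusted p = 0.003193) was -0.16 with the offsets (edgeR adjusted p = 0.4552). The other gene called lower was Ep300, an acetyltransferase (-1.19, and -0.20 with the offsets). Higher were Hsf2, a second factor (0.53, and -0.02 with the offsets), Hsbp1, which binds Hsf1 (0.91, and 0.42 with the offsets), Hikeshi, a nuclear import carrier of Hsp70 (0.62), and Hsf2bp (1.57, and 1.48 with the offsets). Not called were Hsf3 (1.11, and -0.10 with the offsets), Hsf4 (-0.64), Hsf5 (1.36), Sirt1 (0.32), Rpa1 (-0.14) and Dek (0.01), and Dek was called lower with the offsets (-0.85). Hsf3 and Hsf5 were very scarce, with means of 0.178 and 0.158 CPM in the controls and 0.392 and 0.414 CPM in the Pkd1 KO kidneys. The 4 called higher were 1 without control 1 or Pkd1 KO 2, and 2 without Pkd1 KO 3, with Hsf2, Hsbp1 and Hikeshi among the calls lost. Over all tested genes, higher calls went from 4148 to 2635, 3933 and 4877 without controls 1, 2 and 3. Without Pkd1 KO 1, 2 and 3 they were 2964, 2340 and 2796.

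Of 9 other Hsp70 and Hsp110 genes, 5 were lower and 1 higher, with a median log2 fold change of -0.76, and with the offsets 4 were lower and 1 higher, with a median of -0.13. Hspa9, the mitochondrial Hsp70, had a log2 fold change of -1.497 and, with the offsets, of -1.72. Its levels were 713, 839 and 568 CPM in the controls and 279, 230.0 and 242 CPM in the Pkd1 KO kidneys, with no overlap. Hspa2 (-0.95) and Hspa4, an Hsp110 protein (-0.87), were lower, and Hspa13 was higher (0.99, and 0.60 with the offsets). Of 28 J-domain genes, 11 were lower and 5 higher, with a median of -0.33, and with the offsets 5 were called in each direction, with a median of -0.23. Dnajc11 (-1.13, and -0.22 with the offsets), Dnajc21 (-1.01) and Dnajc7 (-0.99) were lower, while Dnajc15 (1.58), a J-domain protein of the mitochondrial import motor, and Hscb (1.15, and 0.49 with the offsets), which serves iron-sulfur cluster assembly, were higher. The 11 J-domain genes called lower were 6 without Pkd1 KO 2 and 4 without Pkd1 KO 3. Lower calls over all tested genes fell from 4431 to 2731 and 3075 in the same fits. They were 3462, 4584 and 5441 without controls 1, 2 and 3, and 3249 without Pkd1 KO 1.

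Of 20 Hsp90 co-chaperones, 6 were lower and 3 higher, with a median log2 fold change of 0.20, and with the offsets 2 were lower and 4 higher, with a median of -0.03. Nudc (-1.29), Fkbp5 (-1.01, and -0.30 with the offsets) and Unc45a (-0.79, and 0.08 with the offsets) were lower, and Pih1d1 (0.76) and Rpap3 (0.60) were higher. The 3 called higher, Pih1d1 and Rpap3 among them, were 0 without control 1, 1 without Pkd1 KO 1 or Pkd1 KO 2, and 7 without control 3. Of 9 nucleotide exchange factors and partners of Hsp70, 5 were lower and 2 higher, with a median of -0.37, and 2 lower and 1 higher with the offsets, with a median of -0.24. Among them were Bag6 (-1.01, and 0.07 with the offsets), Bag3 (-0.91), Stub1 (-0.83, and -0.32 with the offsets) and, higher, Bag2 (0.76) and Bag4 (0.39). Lower calls in that list were 3 without control 1, Pkd1 KO 2 or Pkd1 KO 3, and higher calls were 1 without any library other than control 3, with Bag4 the call lost. Of 9 other small heat shock genes listed, 8 were tested, with a median of -0.21. Hspb7 (-1.07, and -0.70 with the offsets) and Hspb6 (-0.74) were lower and Hspb11 (1.28, and 0.67 with the offsets) was higher. With the offsets 3 were lower, Cryab (-0.73) among them, and 1 was higher, with a median of -0.51. Whether Hspb11 belongs to this family was not examined, and no other gene of the list was called higher in either of these fits. Without the offsets, lower calls in the list were 1 without control 1, Pkd1 KO 1 or Pkd1 KO 2, and Hspb6 passed only without control 3.

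Of 14 genes of the cytosolic chaperonin TRiC and of prefoldin, which hands it newly made actin and tubulin, 5 were higher and none lower, with a median log2 fold change of 0.33. The 3 largest were the prefoldin genes Pfdn5 (1.54), Vbp1 (1.47, and 0.40 with the offsets) and Pfdn1 (0.86, and 0.30 with the offsets), and with the offsets 3 of the 14 were higher and 4 lower, with a median of 0.04. The 5 called higher were 3 without control 1, Pkd1 KO 1 or Pkd1 KO 2 and 8 without control 3, and 1 was called lower without control 2. Of 20 mitochondrial chaperone and protease genes, 7 were lower and 5 higher, with a median of -0.20. With the offsets 8 were lower and 7 higher, with a median of -0.26. Lonp1, the matrix protease, had the most negative change (-1.88, and -1.21 with the offsets), followed by Hspa9 and Clpb (-1.40, and -0.58 with the offsets), and Grpel2, an exchange factor of Hspa9, was higher (1.22), as was Hscb. The 5 higher were 2 without control 1 and 3 without any 1 of the Pkd1 KO libraries. Of 20 other targets of heat shock factor 1, 5 were lower and 2 higher, with a median of -0.12, and with the offsets 5 were lower and none higher, with a median of -0.24. Most of these targets, such as Bag3, Hspa4, Hspa4l, Fkbp4 and Tcp1, also belong to lists above and are counted there as well. Bag3, Hspa4 and Hspa4l (-0.78) were among the lower, and Rgs2 (0.83, and 0.37 with the offsets) and Mrpl18 (0.58, and 0.06 with the offsets) were the higher. Lower calls among these targets were 9 without control 2 and 3 without control 1 or Pkd1 KO 2, and higher calls were 1 without any library other than control 3.

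**Figure D4:**
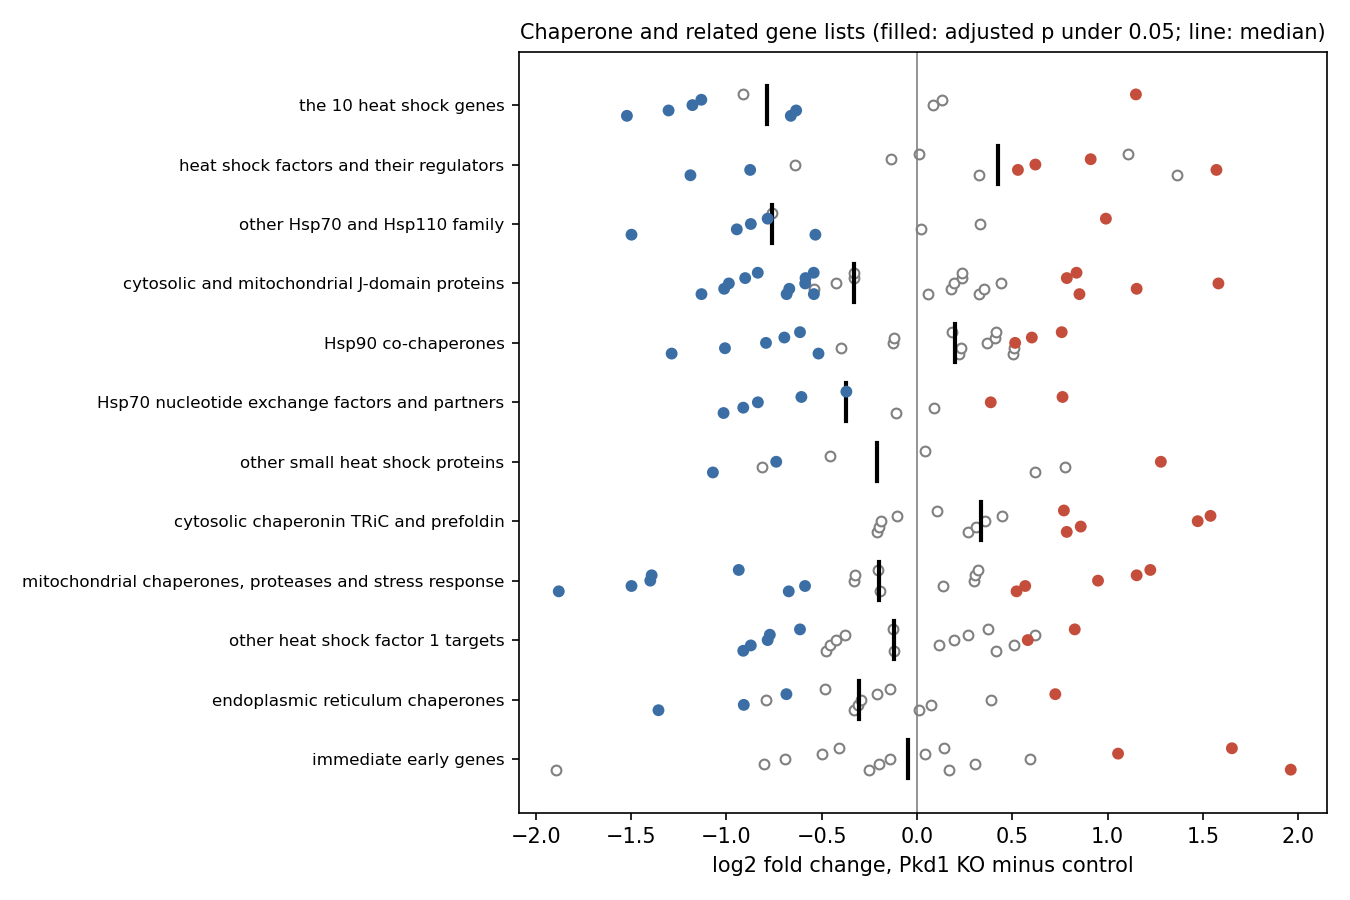
Log2 fold change (horizontal axis, Pkd1 KO minus control) of every tested gene of each list (vertical axis), with filled points for an adjusted p under 0.05 and a line at each list's median. The 10 heat shock genes have a median of -0.79, and the TRiC and prefoldin list has 5 filled points, all right of 0.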

How the data were processed

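The authors deposited gene-level read counts without normalization, 1 table for each of 7 sequencing runs, and the runs of control 1 were summed. The submitters' processing notes name FastQC 0.11.8, cutadapt 4.0, STAR 2.6.1e and GRCm39, and the gene annotation, read length and strandedness are not given in the sources used here. Per the labels' protocols, poly-A RNA was purified and primed at random. Column 2 of the counts ignores strand and was used, since the first strand held 49.1% to 49.96% of strand-assigned reads. Lines that name no gene stayed out, and held 22.9% to 26.3% of reads.

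Genes were tested with edgeR 4.0.16 (R 4.3.3) by the quasi-likelihood test with TMM, filterByExpr and Benjamini-Hochberg adjustment at 0.05. SE is the absolute log2 fold change over the square root of F. Offsets came from a loess (span 0.3) on GC content and log2 exon length. It was fitted to each library's log2 CPM minus the gene's mean over the libraries. A difference between the groups that follows GC content or length is therefore removed as well. GC content and length came from GENCODE M21, which is of an older build and covered 97.3% of genes. DESeq2 1.42.0, other scalings, no filter, a replicate block and left-out libraries were alternatives. The test was tested on simulated data. In each list the text names up to 3 called genes with the largest change in the commoner direction and 2 in the other, and every tested heat shock factor or regulator. Members and lists were chosen with earlier results of these data known. The genes closest to the set after removal of the group means are not reported here.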

Additional observations from a re-analysis of the deposited data

How the results depend on the processing

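Without 1 library at a time, 5071 (without Pkd1 KO 2) to 10318 (without control 3) genes were called, and 4 to 8 of the 10 heat shock genes. With the offsets and 1 library left out, which was added after seeing the data for the counts and the 10 genes only, these ranges were 2901 to 7574 and 4 to 7, with 3726 genes called without control 1 and 4045, 2901 and 3472 without Pkd1 KO 1, 2 and 3. Of the 10 genes, 4 were called with the offsets without control 1 or any 1 of the Pkd1 KO libraries. Upper-quartile scaling moved the median of all genes from 0.03 to 0.19 and called 5274 higher and 3447 lower, against 4148 and 4431, and it left 1 higher and 4 lower of the 10. The sample numbers are not stated to pair the libraries. Deviations from the group means correlated at 0.038, -0.084 and -0.029 between same-numbered libraries, which cannot show that pairing was absent. A replicate block called 7397 genes and 6 of the 10, without Hsp90aa1 (edgeR adjusted p = 0.07317), and the block with the offsets called 5498 genes.

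The log2 fold change reversed as follows. With the offsets it was -0.057 for Hspa8, -0.02 for Hsf2, 0.071 for Bag6, 0.081 for Unc45a, -0.068 for Dnajb9, -0.101 for Hsf3, -0.854 for Dek and 0.038 for Rpa1. With the block and the offsets it was -0.021 for Hsf2, 0.071 for Bag6, 0.092 for Unc45a, -0.045 for Dnajb9, -0.032 for Hsf3, -0.83 for Dek and 0.041 for Rpa1. With least-squares loess offsets, chosen after seeing the data, it was -0.107 for Hspa8, -0.084 for Hsf2, 0.038 for Bag6, 0.057 for Unc45a, -0.091 for Dnajb9, -0.08 for Hsf3 and -0.854 for Dek. Over the libraries left out 1 at a time it ran from -0.214 (without control 2) to 0.307 for Hspa8, from -0.246 (without control 2) to 0.358 for Dnajb1 and from -0.092 to 0.044 for Dek. Without control 2 and with the offsets it was -0.354 for Hspa8 and -0.101 for Dnajb1. Hspa8 was at -0.123 and -0.104 with the offsets without Pkd1 KO 1 or Pkd1 KO 2. Rpa1 was at 0.025 with upper-quartile scaling. Dek was at -0.025 by DESeq2, -0.014 with DESeq2 size factors, -0.003 with the larger run of control 1, -0.009 without control 1, -0.092 without control 3 and -0.054 without Pkd1 KO 2. The cause was not tested for any of these. Counts of Hspa1a, 77 to 480 a library, were the lowest of the 10 genes.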

Other observations

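Of 14 chaperones of the endoplasmic reticulum, which fold secreted and membrane proteins, 3 were lower and 1 higher by edgeR's quasi-likelihood test, with a median log2 fold change of -0.30, and with the offsets 5 were lower and none higher, with a median of -0.56. Hyou1, an Hsp110 protein of that compartment, stood at 188, 115 and 200.2 CPM in the controls and at 73.9, 61.7 and 60.8 CPM in the Pkd1 KO kidneys, with no overlap. Its log2 fold change was -1.36 (-0.76 with the offsets, edgeR adjusted p = 0.05533), and that of Hsp90b1, the Hsp90 of that compartment, was -0.91 (-1.43 with the offsets). Pdia4 was lower (-0.68, and -1.06 with the offsets) and Dnajb9 higher (0.73, and -0.07 with the offsets). Control 2 was the lowest control for 13 of the 14, and 9 were called lower without it. The 1 called higher was not called without control 1 or any 1 of the Pkd1 KO libraries.

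Of 16 immediate early genes, which respond within minutes to stimuli, 3 were higher and none lower, namely Atf3 (1.96), Egr2 (1.65) and Klf6 (1.05, and 0.60 with the offsets). With the offsets 3 were higher and 1 lower. Fos stood at 39.3, 2.65 and 3.19 CPM in the controls and at 16.1, 17.4 and 22.3 CPM in the Pkd1 KO kidneys. Control 1 was the highest library for Fos and held 16.5 CPM of Fosb, against 0.277 and 0.224 CPM in the other controls. Control 1 was also the highest library for Hspa1a and Hspa1b, and the part of the immediate early genes in those levels was not tested. Egr2 passed only without control 1 among the left-out libraries. Without control 1, 7 of the 16 were higher, and without control 3, 5 were lower and 2 higher.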
